A study of Homo sapiens with 18 samples.

Results

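PAX3, PAX7, MSX1, MSX2, LMX1A and LMX1B are 6 homeobox transcription factor genes used as markers of the dorsal neural tube, and they are described here across all 6 groups of a human neural differentiation series. The genes were chosen by name, and all 6 are among the 19775 genes with a probe set naming that gene alone. Where a gene had several probe sets, those ending in _x_at were set aside and the brightest of the rest over the 18 arrays was kept. This left 1 probe set per gene, out of 4 for PAX3, 2 for PAX7, 2 for MSX1, 3 for MSX2, 1 for LMX1A and 1 for LMX1B. On GRCh38.p14 the genes lie at chr2:222199887-222298998 (PAX3), chr1:18630846-18748866 (PAX7), chr4:4859665-4863936 (MSX1), chr5:174724582-174730896 (MSX2), chr1:165201867-165356715 (LMX1A) and chr9:126613928-126701032 (LMX1B).

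The samples were RNA pools of H9 cells, a human embryonic stem (ES) cell line, and of cells derived from it, on 18 one-colour Affymetrix arrays with 3 pools per group. The groups were undifferentiated ES cells, day 6 embryoid bodies (suspended aggregates), day 10 neuroepithelium with bFGF, day 10 neuroepithelium without bFGF, day 17 neuroepithelium with bFGF, and day 17 neuroepithelium without bFGF. Basic fibroblast growth factor (bFGF, FGF2) was present from day 6 in the bFGF groups, and the labels give it as 20 ug/ml at day 10 and 20 ng/ml at day 17, a difference in unit that was not resolved. The labels call day 10 cells primitive and day 17 cells definitive neural epithelium. No other allele or agent is given, and all cells come from 1 line. Pools 1 and 2 of the embryoid bodies carry the same passage numbers as ES pool 1, pool 3 of both groups shares its passages, and nothing says that the pools came from separate cultures, and so the p-values reflect only how these pools varied, which may be technical.

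In vertebrate embryos the dorsal neural tube is patterned by BMP and Wnt ligands from the surface ectoderm and roof plate, opposed by Sonic hedgehog from the floor plate. MSX1 and MSX2 are transcriptional repressors that BMP signalling induces in the neural plate border and dorsal midline. PAX3 and PAX7 are paired-box factors of dorsal progenitors, of neural crest and, outside the nervous system, of muscle progenitors. LMX1A and LMX1B are LIM-homeodomain factors, LMX1A of the roof plate and of midbrain dopaminergic progenitors, LMX1B of the midbrain-hindbrain region and of dorsal spinal cord neurons, as known from mouse and chick.

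Upstream flanks are shown for the 4 genes whose pools at day 6 all lay above those of ES cells. Each is the 250 bases before the RefSeq start on GRCh38.p14, written 5′ to 3′ on the strand of the gene, and capitals mark CCAAT or its reverse complement ATTGG, the letters of the CCAAT box. The PAX3 window lies at chr2:222298999-222299248 on the minus strand, PAX7 at chr1:18630596-18630845, MSX1 at chr4:4859415-4859664 and MSX2 at chr5:174724332-174724581, these last on the plus strand.
PAX3: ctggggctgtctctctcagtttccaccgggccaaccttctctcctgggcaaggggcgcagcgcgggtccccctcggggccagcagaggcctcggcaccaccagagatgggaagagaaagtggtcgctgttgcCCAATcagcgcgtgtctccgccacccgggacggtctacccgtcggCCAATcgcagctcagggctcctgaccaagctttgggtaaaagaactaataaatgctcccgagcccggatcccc
PAX7: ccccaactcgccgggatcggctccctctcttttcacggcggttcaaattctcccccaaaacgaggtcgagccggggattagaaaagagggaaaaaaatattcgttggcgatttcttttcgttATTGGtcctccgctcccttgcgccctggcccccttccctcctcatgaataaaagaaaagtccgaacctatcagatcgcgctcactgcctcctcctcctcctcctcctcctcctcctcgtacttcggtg
MSX1: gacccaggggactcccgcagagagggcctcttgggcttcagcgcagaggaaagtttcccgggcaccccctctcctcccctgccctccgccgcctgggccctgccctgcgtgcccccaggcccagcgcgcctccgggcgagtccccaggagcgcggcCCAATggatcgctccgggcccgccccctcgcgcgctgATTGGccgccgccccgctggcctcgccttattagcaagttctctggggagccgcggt
MSX2: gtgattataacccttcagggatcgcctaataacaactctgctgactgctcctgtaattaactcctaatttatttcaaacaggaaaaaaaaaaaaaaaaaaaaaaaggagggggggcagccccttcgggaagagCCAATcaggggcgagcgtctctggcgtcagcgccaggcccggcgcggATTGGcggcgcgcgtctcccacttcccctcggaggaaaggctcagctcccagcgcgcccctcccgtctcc
PAX3, MSX1 and MSX2 each had 2 matches and PAX7 had 1. Of 35116 windows of the same length over all genes, 32.0% held at least 1 match on either strand and 9.53% held 2 or more. No match was found in the windows of LMX1A, which has 2 annotated starts, or LMX1B. The palindrome GGCGCC, a SMAD-type site, and CAATTA, an MSX-type homeodomain site, were also searched on both strands and were not found in these letters for any of the 6 genes, while 16.4% and 6.70% of all windows held them. GGGCGG, the GC box, was found 2 times in the MSX1 window and 0 times in those of MSX2, PAX3 and PAX7, 1 and 2 times in those of LMX1A and 2 times in that of LMX1B, against 42.6% of all windows with at least 1. TATAAA, the TATA box, was in 10.7% of all windows and in none of these genes. The letters of CCAAT and CAATTA can overlap. These matches describe the letters of the windows only, and CCAAT was put in capitals after the sequences had been seen.

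The deposited values are linear signals that had been scaled to 1 level on all arrays. On 4 arrays, pool 2 of each neuroepithelial group, low signals were raised, with array medians of 48.7 to 50.8 against 25.2 to 32.7 on the other 14 arrays, so each group at days 10 and 17 holds 1 such array and ES and day 6 hold none. The 6 arrays of pool 2 also had higher 3′ to 5′ ratios of ACTB (2.27 to 2.64) than the other 12 (1.17 to 1.75). The summed signal of 5 ES cell markers was 22478 to 23755 at day 6, against 26432 to 30529 in ES cells. LIN28A made up the largest part at day 6, with a mean of 10898, while NANOG fell from a mean of 3203 in ES cells to 291. For 6 neural progenitor markers the sum was 20814 to 29106 at day 17 with bFGF and 20084 to 34844 at day 17 without. In bulk RNA, fewer cells of a type and less RNA per cell cannot be told apart. Changes below are differences of log2(signal + 16), given as estimate ± standard error, and the test is limma's moderated test over all 18 arrays with Benjamini-Hochberg adjustment over 19775 genes and a threshold of 0.05.

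**Figure D1:**
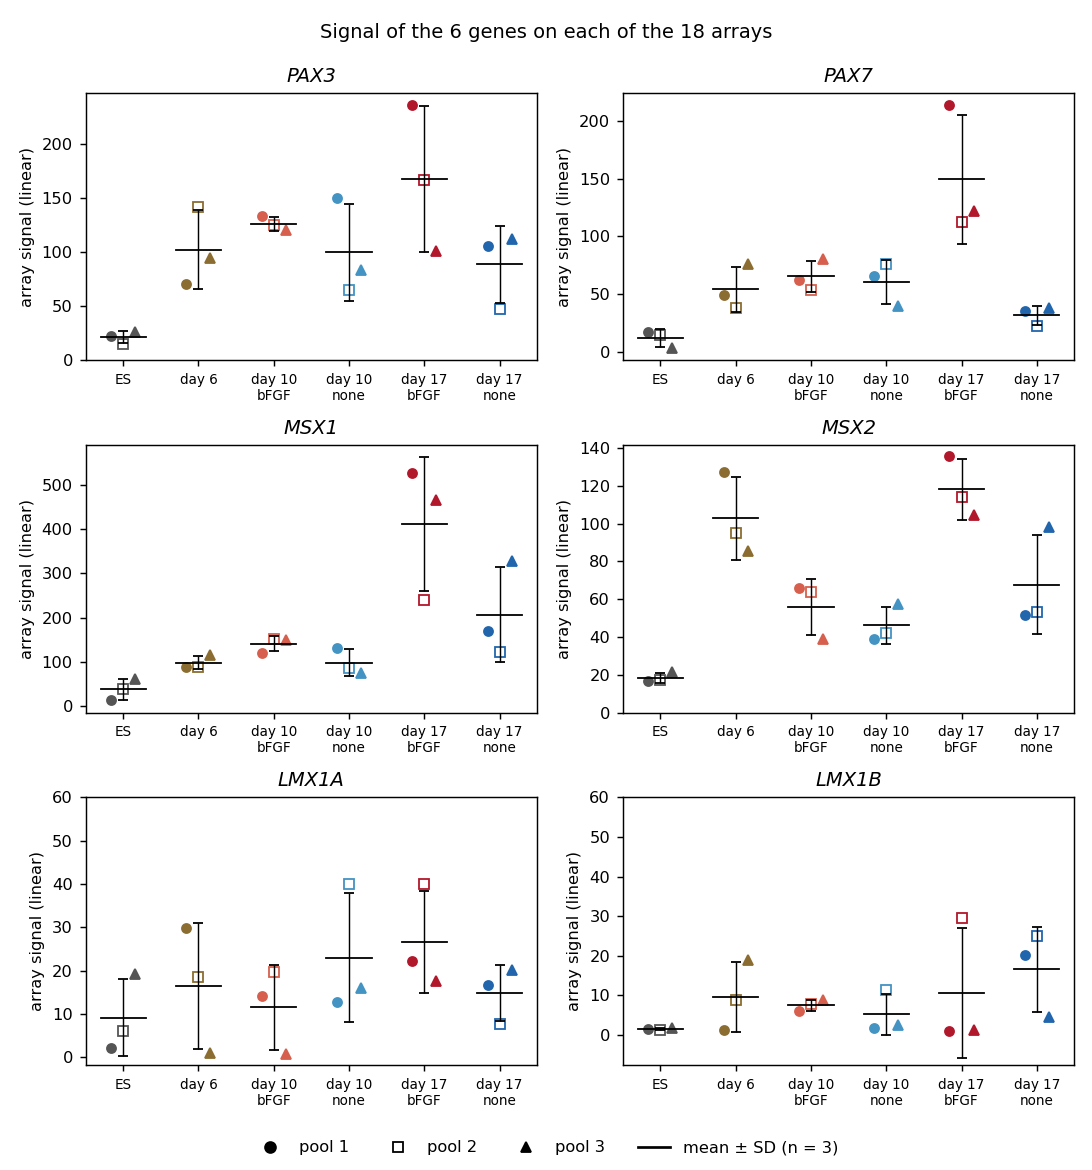
Signal of each gene (linear array signal, vertical axis) on each array, by group along the horizontal axis. Circles, open squares and triangles are pools 1, 2 and 3, and bars are mean ± SD (n = 3). PAX3, PAX7, MSX1 and MSX2 are higher at day 6 than in ES cells on every array. They and LMX1A have their highest group mean at day 17 with bFGF. The axes of LMX1A and LMX1B end at 60, and for these genes the groups compared in the text overlap.

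PAX3, PAX7 and MSX2 rose in day 6 embryoid bodies relative to ES cells, and MSX1 was higher without passing the test. MSX2 had 127, 95.03 and 85.6 in the 3 pools at day 6, against 16.8, 17.04 and 21.6 in ES cells, a log2 change of 1.77 ± 0.24 (3.41-fold on this scale, adjusted p = 0.000231). PAX3 had 70.8, 142 and 94.1 at day 6, against 22.6, 15.0 and 26.3 in ES cells (1.63 ± 0.34, adjusted p = 0.00986). The lowest day 6 pool of each of these genes lay well above the highest ES pool.

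PAX7 had 48.8, 37.9 and 75.9 at day 6, against 17.4, 14.5 and 2.98 in ES cells (1.35 ± 0.30, adjusted p = 0.0142). MSX1 had 89.9, 89.5 and 115 at day 6, against 13.3, 40.1 and 61.9 in ES cells (1.17 ± 0.38, adjusted p = 0.121). The pools of both genes did not overlap between the groups, but the change of MSX1 did not pass the test, and its ES pools were spread widely.

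In total 3 of the 6 genes rose and 0 fell, while 2.19% of all genes tested rose. Every day 6 pool lay above every ES pool for 4 of the 6 genes, as for 10.1% of the 19775. The median log2 change of the 6 genes was 1.26, against -0.00 over all genes. The call of PAX3 was lost without day 6 pool 2 (1.40, adjusted p = 0.0627), the highest of its pools, and without pool 2 of all 6 groups (1.27, adjusted p = 0.103). That of PAX7 was lost without ES pool 3 (1.10, adjusted p = 0.0838) or day 6 pool 3 (1.14, adjusted p = 0.0904), and MSX2 kept its call without any 1 array.

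Other genes of dorsal and border territories were read from lists. Of 10 neural plate border genes measured, 5 rose and 0 fell at day 6, among them TFAP2A (3.82), a factor of surface ectoderm and neural crest, and DLX5 (3.15), a homeobox factor of the border. Their median log2 change was 1.10. Of 11 BMP response genes 4 rose and 0 fell by the test, with ID2 at 1.44 and SMAD9 at 1.29, and a median of 0.63. The list was not uniform, since ID1 and SMAD7 had lower means at day 6 without passing. ID1 was at 3393 at day 6, against 6268 in ES cells, and SMAD7 at 104, against 173. Of 11 roof plate and dorsal signal genes only RSPO3 (2.63), which enhances Wnt signalling, rose, and 2 of 13 other dorsal progenitor factors did, LHX2 (5.40) and GLI3 (1.64).

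Markers of other cell types that use these genes moved at the same step, and their part in the result was not tested. For neural crest, 4 of 8 markers rose and 2 fell, and their summed signal was 1225 to 1523 at day 6 and 1002 to 1615 in ES cells. The crest markers TFAP2B (3.32) and SNAI2 (2.25) were among those that rose. In the other direction, FOXD3, ETS1 and ERBB3 had lower means at day 6, at 38.4, 198 and 358, against 105, 651 and 507 in ES cells. For trophoblast and amnion, where MSX2 is also expressed, 4 of 6 markers rose, with sums of 854 to 1314 at day 6 and 136 to 175 in ES cells. Of 8 paraxial mesoderm and muscle markers 0 passed limma's test and 1 had an unadjusted p under 0.05, at sums of 50.2 to 76.5 at day 6 and 103 to 138 in ES cells. No marker was listed at 0 on any array.

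**Figure D2:**
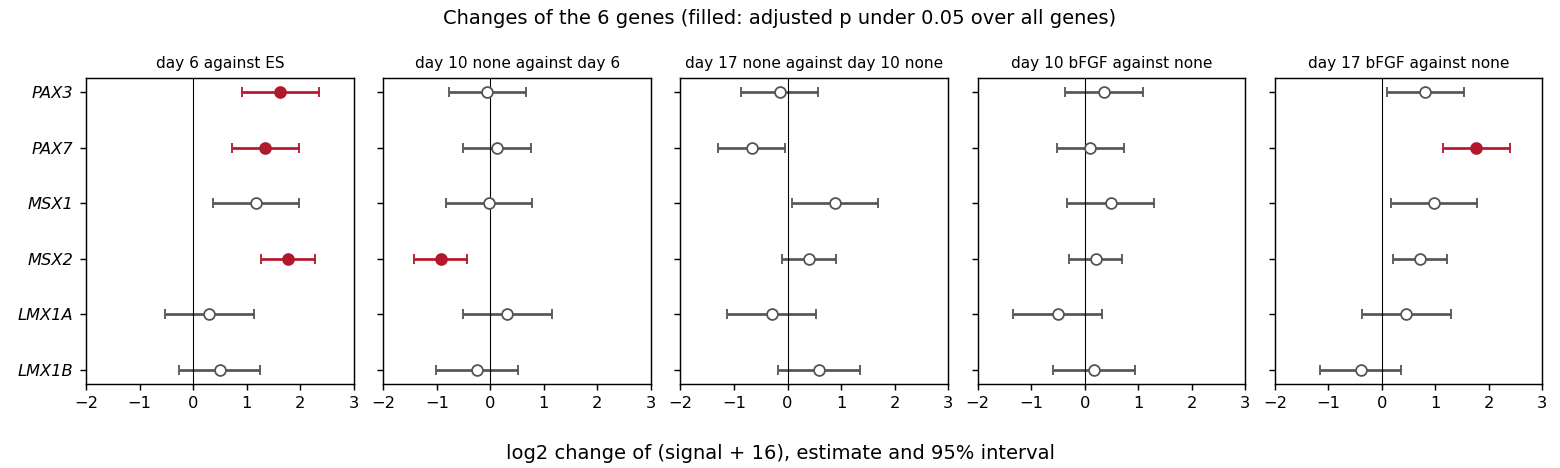
Log2 change of signal + 16 (horizontal axis) for the 6 genes in 5 comparisons, as estimate with 95% interval. Filled points passed the test over all genes: PAX3, PAX7 and MSX2 upward at day 6, MSX2 downward at day 10 without bFGF, and PAX7 upward with bFGF at day 17.

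MSX2 then fell in the untreated cultures, and the other genes showed no called change from day 6 to day 10. MSX2 had 39.1, 42.2 and 57.2 at day 10 without bFGF, against 127, 95.03 and 85.6 at day 6 (-0.93 ± 0.24, adjusted p = 0.0248), and the pools did not overlap, as for 9.67% of all genes with day 10 lower. It was 1 of 6 genes to fall, with 2.64% of all genes. This call was lost without pool 1 or 2 of either group (adjusted p 0.0597 to 0.124). Without the 4 arrays with raised low signals the change was -0.89 (adjusted p = 0.0897).

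With bFGF, MSX2 was at 65.7, 63.5 and 39.1 at day 10, also below every day 6 pool, as for 12.3% of all genes (-0.73 ± 0.24, adjusted p = 0.0816). This did not pass the test, but did after quantile scaling (-0.94, adjusted p = 0.0422). With bFGF 0 of 6 genes passed limma's test from day 6 to day 10, while 7.05% of all genes passed. An unadjusted p under 0.05 was found for 1 of the 6 and for 18.8% of all genes. MSX1 lay apart the other way, every day 10 pool with bFGF above every day 6 pool (0.46 ± 0.38, adjusted p = 0.583), as for 14.8% of all genes. Both day 10 groups are compared with the same day 6 arrays.

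PAX3, PAX7 and MSX1 had no called change from day 6 in either arm. PAX3 had 133, 124 and 120.3 at day 10 with bFGF and 150.1, 65.1 and 83.8 without, against a day 6 mean of 102 ± 36.2. PAX7 had 62.3, 53.4 and 80.0 with bFGF and 65.8, 75.9 and 39.5 without, against 54.2 ± 19.5 at day 6. MSX1 had 121, 152 and 149.6 with bFGF and 133, 86.7 and 75.6 without, against 98.3 ± 14.9 at day 6. Without bFGF the 95% intervals of the change from day 6 were -0.78 to 0.67 for PAX3, -0.50 to 0.76 for PAX7 and -0.83 to 0.78 for MSX1. These intervals are not adjusted over genes, and changes inside them were not excluded.

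Members of the neural plate border list also changed at this step. At day 10 without bFGF 1 of its 10 genes rose and 3 fell, TFAP2C (-2.14) and TFAP2A (-1.88) among them, and the Notch target HES4 (3.17) was the one that rose. Of 11 BMP response genes 1 fell, ID1 (-1.13), and 0 rose. Among the 13 other dorsal progenitor factors 3 rose, with ZIC1 at 3.36. Of 7 surface ectoderm markers 4 fell, among them CDH1 (-3.44), EPCAM (-2.81) and GRHL3 (-2.18). CDH1 and EPCAM were not particular to surface ectoderm here, with means of 4015 and 5360 in ES cells, against 3867 and 3630 at day 6. GRHL3 was at 44.1 in ES cells and 170 at day 6. The keratin genes KRT5, KRT14 and KRT15 had means of 5.57, 4.83 and 3.16 at day 6.

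At day 10 itself bFGF made no called difference to any of the 6 genes. Of 6 genes 0 passed limma's test, while 0.086% of all genes passed, and 0 had an unadjusted p under 0.05, with 3.1% of all genes. MSX1 was at 141 ± 17.1 with bFGF and 98.3 ± 30.2 without (0.48 ± 0.38), and PAX3 at 126 ± 6.50 with bFGF and 99.6 ± 44.7 without (0.36 ± 0.34). The difference was 0.20 ± 0.24 for MSX2 and 0.11 ± 0.30 for PAX7. The 95% intervals reached up to 1.29 for MSX1 and 0.74 for PAX7.

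At day 17 PAX7 rose with bFGF, the only member to pass the test. PAX7 had 214, 112 and 122 with bFGF, against 34.8, 22.0 and 37.6 without, a log2 change of 1.77 ± 0.30 (3.40-fold on this scale, adjusted p = 0.0135). All bFGF pools exceeded all untreated pools, and in each pool number the bFGF array was higher, by 2.18, 1.75 and 1.37. This was 1 of 6 genes, while 0.182% of all genes rose.

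The PAX7 call was lost without bFGF pool 1 (1.50, adjusted p = 0.102), the highest pool, and without untreated pool 2 (1.61, adjusted p = 0.0780), 1 of the 4 arrays with raised low signals. Without all 4 of those arrays the change was 1.77 (adjusted p = 0.0846).

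MSX1, MSX2 and PAX3 had higher means with bFGF at day 17 but did not pass the test. MSX1 had 527, 239.7 and 466 with bFGF, against 170.4, 122 and 329 without (0.97 ± 0.38, adjusted p = 0.774), and 1 untreated pool lay above the lowest bFGF pool. MSX2 had 136, 114 and 105 with bFGF, against 51.7, 53.3 and 98.2 without (0.72 ± 0.24, adjusted p = 0.538), with no overlap. PAX3 had 236, 166 and 101 with bFGF, against 106, 47.5 and 112 without (0.81 ± 0.34, adjusted p = 0.917), and in pool 3 the bFGF array was the lower one.

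Counted by pool number, the bFGF array was higher in 3 of 3 pools for PAX7, MSX1 and MSX2 and in 2 of 3 for PAX3. The difference was smallest in pool 3 for each of these genes, at 1.37 for PAX7, 0.48 for MSX1, 0.08 for MSX2 and -0.13 for PAX3. An unadjusted p under 0.05 was found for 4 of the 6 genes and 4.96% of all genes, while 1 of the 6 passed the test. The groups lay apart, with bFGF higher, for 2 of 6 genes and 3.96% of all genes. The median log2 change of the 6 genes was 0.76, against -0.01 over all genes.

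**Figure D3:**
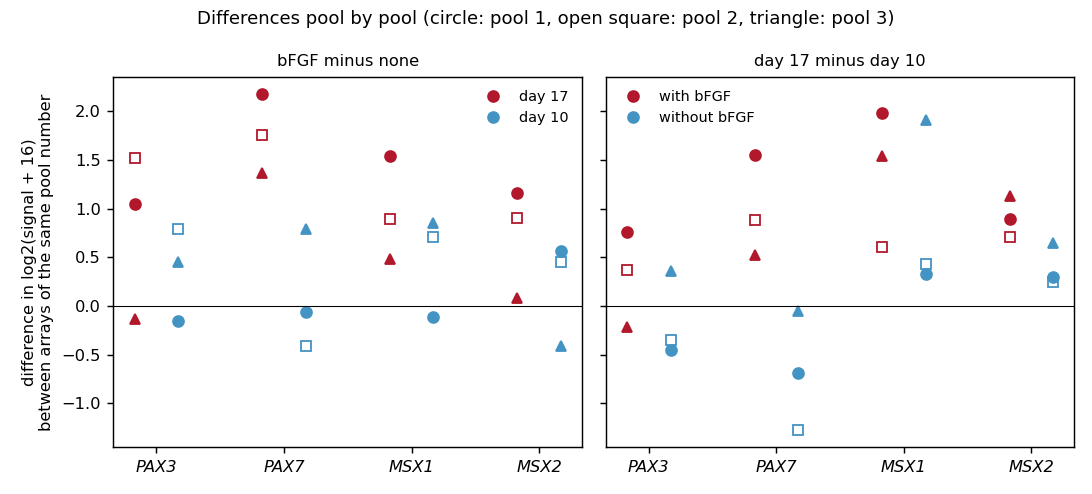
Difference in log2(signal + 16) between arrays of the same pool number (vertical axis) for PAX3, PAX7, MSX1 and MSX2. On the left, bFGF minus none at day 17 and at day 10; on the right, day 17 minus day 10 with and without bFGF. All 3 pools of PAX7 lie above 0 with bFGF and below 0 without it in the right panel.

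The time course from day 10 to day 17 had no called change in either arm. With bFGF, MSX1 was at 411 ± 151 at day 17, against 141 ± 17.1 at day 10 (1.38 ± 0.38, adjusted p = 0.131), PAX7 at 149 ± 56.1 against 65.2 ± 13.6 (0.99 ± 0.30, adjusted p = 0.188), and MSX2 at 118 ± 15.9 against 56.1 ± 14.8 (0.91 ± 0.24, adjusted p = 0.0959). The day 17 pools of these 3 genes all lay above the day 10 pools, as they did for 6.06% of all genes. Of 6 genes 0 passed limma's test, while 1.05% of all genes passed, and 3 had an unadjusted p under 0.05, with 7.31% of all genes. With a pseudocount of 64, MSX1 passed (1.16, adjusted p = 0.0459).

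Without bFGF, PAX7 was at 31.5 ± 8.32 at day 17, against 60.4 ± 18.8 at day 10 (-0.67 ± 0.30, adjusted p = 0.457), with day 17 below day 10 in every pool, as for 6.32% of all genes. MSX1 was at 207 ± 108 at day 17, against 98.3 ± 30.2 at day 10 (0.89 ± 0.38, adjusted p = 0.420), a difference carried mostly by pool 3 (1.91, against 0.33 and 0.43 in pools 1 and 2). Of 6 genes 0 passed limma's test, while 1.99% of all genes passed, and 2 had an unadjusted p under 0.05, with 9.76% of all genes.

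Whether the bFGF effect differed between the days was tested as an interaction. For PAX7 the bFGF effect at day 17 exceeded that at day 10 by 1.66 ± 0.42 (unadjusted p = 0.00115, adjusted p = 0.739). For MSX2 the difference was 0.51 ± 0.33, for MSX1 0.49 ± 0.54 and for PAX3 0.45 ± 0.48. None passed, 0 of 6 genes and 0% of all genes, with 1 of the 6 and 3.19% of all genes at an unadjusted p under 0.05. The second PAX7 probe set gave 0.03 ± 0.49.

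Ordered by group mean, day 17 with bFGF was highest and ES cells lowest for PAX3, PAX7, MSX1 and MSX2. The same held for LMX1A at low signal (26.7 and 9.17), with all neighbouring groups overlapping. ES cells were also lowest for LMX1B (1.53). Only ES cells stood apart from the next group for PAX3, MSX1 and MSX2, since each other pair of neighbouring groups overlapped. For PAX7 the pools at day 17 with bFGF also stood apart from those of the next group, and those at day 17 without bFGF fell between ES cells and day 6 with no overlap on either side. The margin to day 6 was narrow, with 37.6 in the highest untreated day 17 pool and 37.9 in the lowest day 6 pool. MSX2 differed from the others in its order: day 6, at 103 ± 21.9, was second to day 17 with bFGF.

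LMX1A and LMX1B had low signals and passed the test in no comparison. LMX1A ranged over the 18 arrays from 0.660 to 40.1 with a median of 17.2, and LMX1B from 1.04 to 29.5 with a median of 5.29. Ranked among all genes of the same array, LMX1A was at most at the 39.0th and LMX1B at most at the 32.3rd percentile. Neither gene passed in any comparison, and the compared groups overlapped in all 7.

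At day 17 LMX1A had 22.3, 39.9 and 17.7 with bFGF, against 16.7, 7.74 and 20.1 without (0.46 ± 0.39), and LMX1B had 1.04, 29.5 and 1.25 with bFGF, against 20.2, 24.9 and 4.61 without (-0.40 ± 0.36). The pools within a group spread as widely as the groups. The 95% intervals of these differences were -0.38 to 1.29 for LMX1A and -1.16 to 0.36 for LMX1B. No detection calls were used here, so low expression and background cannot be told apart for these genes.

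Each of these genes has 1 probe set here, so no second reading exists. The midbrain and dopaminergic list of 6 genes summed to 104 to 217 at day 17 with bFGF and 77.1 to 130.1 at day 17 without.

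Other probe sets of the same genes gave partly different readings. The set-aside MSX2 probe set, ending in _x_at, a type whose probes may also match other sequences, had 316, 268 and 347 at day 17 with bFGF, against 119.7, 82.0 and 198 without (1.20 ± 0.27, adjusted p = 0.136 over 41097 probe sets), and 149, 259 and 144 at day 6, against 22.5, 30.3 and 37.0 in ES cells (2.09 ± 0.27, adjusted p = 0.000236). In these comparisons it moved the same way as the probe set used. From day 6 to day 10 it changed by -0.77 ± 0.27 without bFGF (adjusted p = 0.140) and by -0.26 ± 0.27 with bFGF (adjusted p = 0.704), so neither passed. Its day 10 pools with bFGF, at 126, 153 and 159, overlapped those of day 6. Without bFGF its day 10 pools, at 92.2, 91.1 and 111, all lay below those of day 6, as with the probe set used. The fall of MSX2 at day 10 without bFGF therefore passed the test on only 1 of 3 probe sets. The remaining MSX2 probe set stayed at 0.875 to 18.5 on all arrays. Averaged with it, without the set-aside one, MSX2 changed by 0.76 at day 6 against ES cells (adjusted p = 0.0322), and the difference at day 10 without bFGF against day 6 was -0.21 (adjusted p = 0.617).

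The second PAX7 probe set did not show the bFGF difference. It had 12.3, 6.26 and 24.9 at day 17 with bFGF, against 17.2, 18.1 and 22.0 without (-0.25 ± 0.35), and its change at day 6 against ES cells was 0.68 ± 0.35. With the mean of both probe sets the PAX7 change with bFGF at day 17 was 0.76 (adjusted p = 0.206). The PAX7 result therefore rests on 1 of 2 probe sets.

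The second MSX1 probe set had means of 63.9 ± 21.9 at day 17 with bFGF and 61.6 ± 18.6 without, and of 25.1 ± 4.53 at day 6 against 16.6 ± 8.75 in ES cells. It was highest in pool 2 in 3 of the 4 neuroepithelial groups, the arrays with raised low signals. The other PAX3 probe sets kept for testing stayed at or below 43.4 on all arrays, and with the mean of the gene's probe sets PAX3 at day 6 lost its call (0.67, adjusted p = 0.127).

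**Figure D4:**
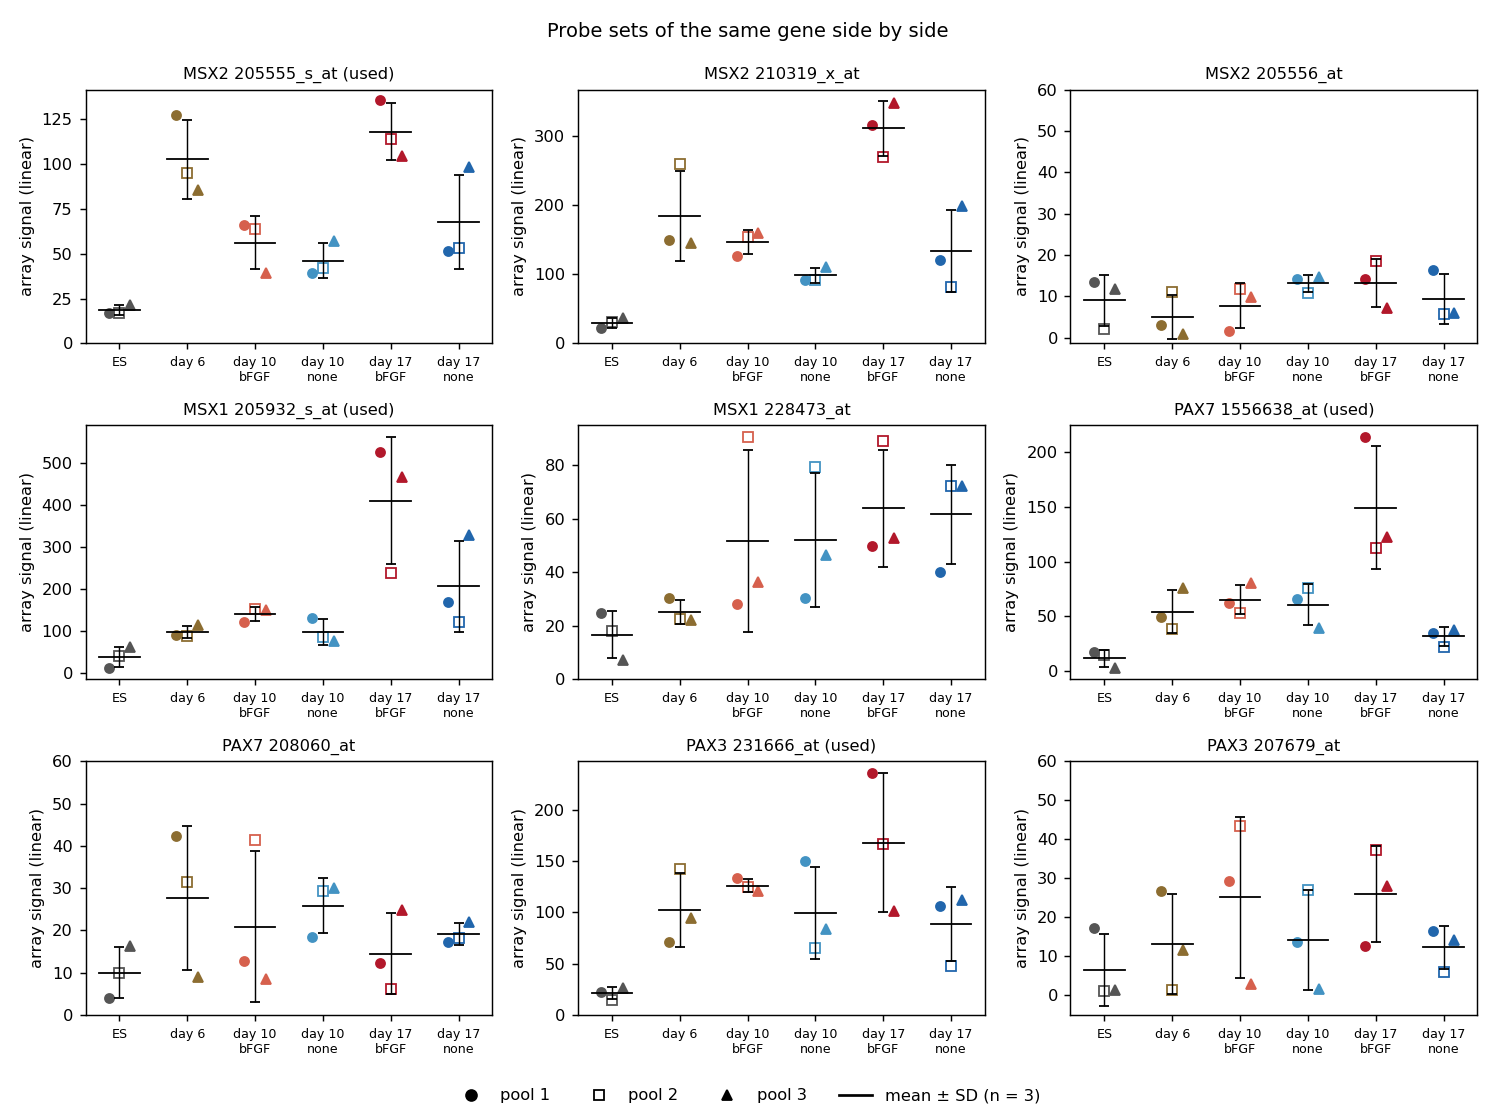
Signal (linear array signal, vertical axis) of 9 probe sets of MSX2, MSX1, PAX7 and PAX3 by group, with pools as circles, open squares and triangles and mean ± SD (n = 3). The 2 upper left panels, both MSX2, share their order of groups at day 6 and day 17, while the second PAX7 probe set has a lower mean at day 17 with bFGF than without, and the means of the second MSX1 probe set at day 17 are 63.9 with bFGF and 61.6 without.

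At day 17, the lists of related genes showed few called differences between bFGF and none. None of the 11 roof plate and dorsal signal genes, 13 other dorsal progenitor factors, 10 neural plate border genes or 11 BMP response genes passed limma's test, while 0, 3, 2 and 3 of them had an unadjusted p under 0.05. The median log2 changes of these lists were 0.14, -0.02, 0.08 and 0.22, in the same order. Among cell type markers, EN2, a homeobox factor of the midbrain and hindbrain, rose to 92.8 ± 31.8 with bFGF, against 17.1 ± 8.87 without (1.71 ± 0.24, adjusted p = 0.00436). It was 1 of 6 markers of that list.

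PRRX1, a homeobox factor of mesenchyme, rose to 325 ± 99.4 with bFGF, against 57.8 ± 11.3 without (2.18 ± 0.36, adjusted p = 0.0129), as 1 of 6 mesenchyme markers, whose summed signal was 5795 to 9944 with bFGF and 8351 to 10392 without. CDH1, the epithelial cadherin, fell to 59.99 ± 11.9 with bFGF, against 218 ± 77.3 without (-1.57), as 1 of 7 surface ectoderm markers. GRHL3 of the same list went the other way without passing, at 70.9 ± 25.1 with bFGF and 21.0 ± 7.31 without. Of these 7 markers 4 had an unadjusted p under 0.05, with 4.96% of all genes. Their summed signal was 371 to 400 with bFGF and 465 to 753 without. For neural crest 0 of 8 markers passed limma's test and 2 had an unadjusted p under 0.05, with sums of 1812 to 2617 with bFGF and 1426 to 2006 without, and for paraxial mesoderm and muscle 0 of 8 passed, with 0 at an unadjusted p under 0.05 and sums of 109.9 to 237 with bFGF and 90.9 to 238 without. The part of these cell types in the PAX7 difference was not tested.

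Between day 10 and day 17 the dorsal factor ZIC1 rose in both arms, by 2.77 with bFGF and 2.15 without. With bFGF ZIC4 (1.52), LHX9 (1.38) and RSPO2 (1.99) passed as well. Of the 13 other dorsal progenitor factors 3 rose with bFGF and 1 without, with median changes of 0.21 and 0.14. Of the 11 roof plate and dorsal signal genes 1 and 0 rose, while 1.05% and 1.99% of all genes passed in either direction. Some listed factors had lower means at day 17 without passing. ZIC2 was at 2687 with bFGF and 1530 without, against 3470 and 3336 at day 10. LHX2 with bFGF was at 2663, against 3154, and ZIC5 without bFGF at 54.8, against 109. At day 17 LHX9 was at 66.4 with bFGF and 68.7 without, RSPO2 at 82.1 and 63.5, and ZIC4 at 108 and 49.8. The day 10 means of LHX9 and RSPO2 were lower with bFGF, at 15.6 and 8.79, against 36.4 and 17.4 without. In the opposite, ventral list the forebrain factor NKX2-1 rose in both arms, by 2.05 with bFGF and 2.88 without, and was the only 1 of 7 ventral genes to pass in either. These steps are those at which no member of the PAX, MSX and LMX1 set passed.

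The genes whose profile over the 18 arrays was most like each member were found by Pearson correlation among 9924 genes with a group mean of at least 100. For PAX3 they were LGI1 (0.92), a secreted neuronal protein, FZD10 (0.91), a Frizzled receptor, and LEF1 (0.90), a transcription factor of the Wnt pathway. For PAX7 they were CT75 (0.88), LGI1 (0.88) and TRIL (0.87). For MSX1 they were EMX2 (0.91), a homeobox factor of the cortex, WLS (0.90), which carries Wnt ligands to the cell surface, and LYPD1 (0.89).

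For MSX2 they included PRUNE2 (0.86) and TNFRSF19 (0.85). LGI1, near both PAX genes, averaged 698 at day 17 with bFGF and 147 without, and 3.04 in ES cells. For LMX1A the highest was 0.74 and for LMX1B 0.75, among 9925 genes. The arrays share groups and pool numbers, and these correlations are descriptions of the profiles.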

How the data were processed

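Total RNA pools of H9 cells and derivatives were measured on one-colour Affymetrix arrays with 54675 probe sets. The authors deposited 1 linear intensity per probe set and array; the mean after trimming 2% lay between 150.016 and 150.026 on each of 18 arrays, which shows scaling. Summarisation software, background method and detection calls: not given in the sources used here. No further normalization was applied. Names came from the annotation of the platform (41097 name 1 gene, 1801 several, 11777 are unnamed here). Intensities were analysed as log2(signal + 16), which understates the changes of low genes, with 1 mean per group and 12 residual degrees of freedom in limma 3.58.1 (R 4.3.3), checked on simulated data. There were 8 contrasts, each adjusted over 19775 genes. Groups and pool numbers come from titles and descriptions; the number of ES pool 1 follows sample order, and for 1 day 10 pool with bFGF the title says 2, which was used, and the description 1.

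The members and lists were chosen with earlier results of these data known, so no count of them is independent support. Beyond the 6 members, genes were named by rule: at most 3 called members of a list per comparison with the largest change, and the 3 nearest profiles, of which 1 for MSX2 is not reported here. Listed genes named beside these were picked after their values were seen. Whether pool numbers pair the arrays was examined by correlating, across genes, deviations from group means between arrays of the same number. The correlations were 0.209 to 0.383 for day 6 against ES cells and 0.317 to 0.668 among the neuroepithelial groups. From day 6 to day 10 they were 0.0749 to 0.337. Pool 2, whose arrays had higher ACTB ratios, was highest in each comparison. Arrays of unlike number were not correlated, so there is no reference value and pairing was not settled. The main test uses no pairing, and differences by pool number are descriptions. The labels tie only pools 1 and 3 of ES cells and day 6, by shared passages. The number of arrays limits the precision. Other settings tried were a pseudocount of 1 or 64, scaling by quantiles, a filter to the brightest 60% of genes, a trended robust prior, the compared groups alone, averaged probe sets, every probe set tested, the pool number as a block, and leaving out each array or pool 2.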

Additional observations from a re-analysis of the deposited data

Results flagged for a closer look

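PAX7 was higher at day 17 than at day 10 in all bFGF pools (0.99, adjusted p = 0.188) and lower in all untreated pools (-0.67, adjusted p = 0.457), by only -0.05 in pool 3, and neither change passed. The difference of the 2 changes was 1.66 on the log2 scale. Its unadjusted p was 0.00115 and its adjusted p 0.739 in limma's test, so it does not pass over all genes. The second PAX7 probe set gave -0.21 with bFGF and -0.24 without, a difference of 0.03. Groups of 3 pools were not examined for outlying samples.

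The 2 probe sets ending in _x_at were left out of the main measurement. That of MSX2 exceeded every ES pool in all 5 differentiated groups, with mean signals of 184 at day 6, 146 at day 10 with bFGF, 98.1 at day 10 without, 310.5 at day 17 with bFGF and 133 at day 17 without, against 29.9 in ES cells. That of PAX3 exceeded every ES pool at day 10 with bFGF (37.7), at day 10 without (34.3) and at day 17 with bFGF (36.8), against 4.83 in ES cells. At day 17 without bFGF it spread from 4.03 to 95.2.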

How the results depend on the processing

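Over 29 alternatives, 1376 values of the 6 genes in 8 comparisons were recomputed: 1351 kept their side of the threshold, 22 lost a call, 3 gained one and 0 called values changed sign. Another 39 changed sign while called in neither setting. The number of genes past the test was 1 from day 6 to day 10 without bFGF (MSX2) and 0 with the compared groups alone, averaged probe sets, without pool 2 of all groups or without pool 2 of the neuroepithelial groups; leaving out 1 array gave 0 to 1. For bFGF against none at day 17 it was 1 (PAX7) and 0 in those same settings and with a pseudocount of 1 (2.19, adjusted p = 0.190), and leaving out 1 array gave 0 to 1. From day 6 to day 10 with bFGF it was 0, but 1 (MSX2) after quantile scaling or in the upper 60% of genes, and from day 10 to day 17 with bFGF 0, but 1 (MSX1) with a pseudocount of 64. At day 6 against ES cells it was 3, or 2 to 3 leaving out 1 array, and PAX7 lost its call with a pseudocount of 64 (0.64, adjusted p = 0.0524) and with the compared groups alone (1.35, adjusted p = 0.0522). LMX1A and LMX1B fell below the 60% filter. The compared groups alone leave fewer samples to estimate the spread; for the other settings the cause was not tested.

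With the pool number as a replicate block no call of the 6 genes changed: the counts stayed at 3 for day 6 against ES cells, where MSX1 had adjusted p = 0.0611, and at 1 for PAX7 with bFGF at day 17 (adjusted p = 0.00942). Signals near background, as for LMX1A, LMX1B and most second probe sets, carry no bound here.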
